A study of Mus musculus with 12 samples.

Results

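The genes described here are 48 sarcomere and contractile apparatus genes of the mouse, chosen by name and looked up by gene name in 3 tables of gene expression from C2C12 cells. A row was found for 46 of the 48, out of 10289 genes with a row in any of the tables. Myl3, an essential myosin light chain of slow and cardiac muscle, and Tmod4, a tropomodulin that caps actin filaments, had no row, so they have no value here. C2C12 is a mouse myoblast line that divides in serum-rich growth medium (GM) and fuses into myotubes once serum is lowered in differentiation medium. RNA-seq covered 8 libraries in 4 groups of 2. The groups were GFP cells in GM, GFP cells after 4 days of differentiation (D4), METTL3 cells in GM and METTL14 cells in GM. All the cells carried a lentiviral construct and had been selected with puromycin, as stable lines that express GFP, METTL3 or METTL14. The titles of the METTL14 libraries place them at day 0 while their time field reads D4, and the titles were followed. A further 4 MeRIP-seq libraries of GFP cells were not analysed here.

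The sarcomere is the repeating contractile unit of striated muscle. Myosin thick filaments pull on actin thin filaments, and calcium switches the thin filament on through troponin and tropomyosin. The Z-disc anchors the thin filaments, the M-band links the thick filaments, and titin spans between them. Most of these proteins come from gene families whose members are used at different developmental stages or in different fibre types. C2C12 cells are widely used because this program of genes is switched on when myoblasts fuse.

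The 3 tables compare D4 with GM, METTL3 with GFP in GM, and METTL14 with GFP in GM, and they keep the genes that passed a false discovery rate of at most 0.05. Each row gives 1 mean normalized count per gene, pooled over libraries by the authors, and genes listed in several tables carried equal values there. That mean mixes growing and differentiated cells, and all groups but GFP D4 were in GM. It carries no error and does not show in which group a gene was high. Values for single libraries and their depths were not used here, and no rise or fall is stated for any gene. In bulk RNA, fewer muscle cells and less RNA per cell cannot be told apart. Mettl3 had a row in the METTL3 table and Mettl14 in the METTL14 table, and neither had a row in the table of the other methyltransferase. The myotube markers Myog, Ckm, Ryr1 and Mymk and the proliferation markers Mki67 and Top2a all had a row. Of the smooth muscle markers, Myh11 and Tagln had no row and Cnn1 stood at 20.7, while smooth muscle alpha-actin Acta2, which was not on the marker list, had a mean count of 29513. Of the cardiac markers, Nppa had no row, Tnni3 stood at 11.0 and Myh6 at 428. A missing row gives no level for a marker.

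The contractile genes were among the more abundant transcripts of the listed genes. Their median mean normalized count was 2599, against 458 over all genes with a row. Counts grow with transcript length, so levels of different genes were compared after division by the length of the merged exons of each gene. On that per kb scale the median of the 46 genes was 511, against 99.6 over the 10285 genes that also had a length. The median gene of the list stood at the 88.4th percentile. In all, 35 genes lay in the upper 50% of genes, 21 in the top 10% and 8 in the top 1%, which held 103 genes. The spread inside the list was nevertheless wide, from Acta1 at 34861 per kb to Myot at 5.94 per kb, a ratio of 5870. The 5 highest genes carried 65.4% of the summed level per kb and the 10 highest carried 83.9%. Together the genes made up 2.88% of the summed level per kb of all genes with a row, and 2.84% of the summed counts.

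**Figure D1:**
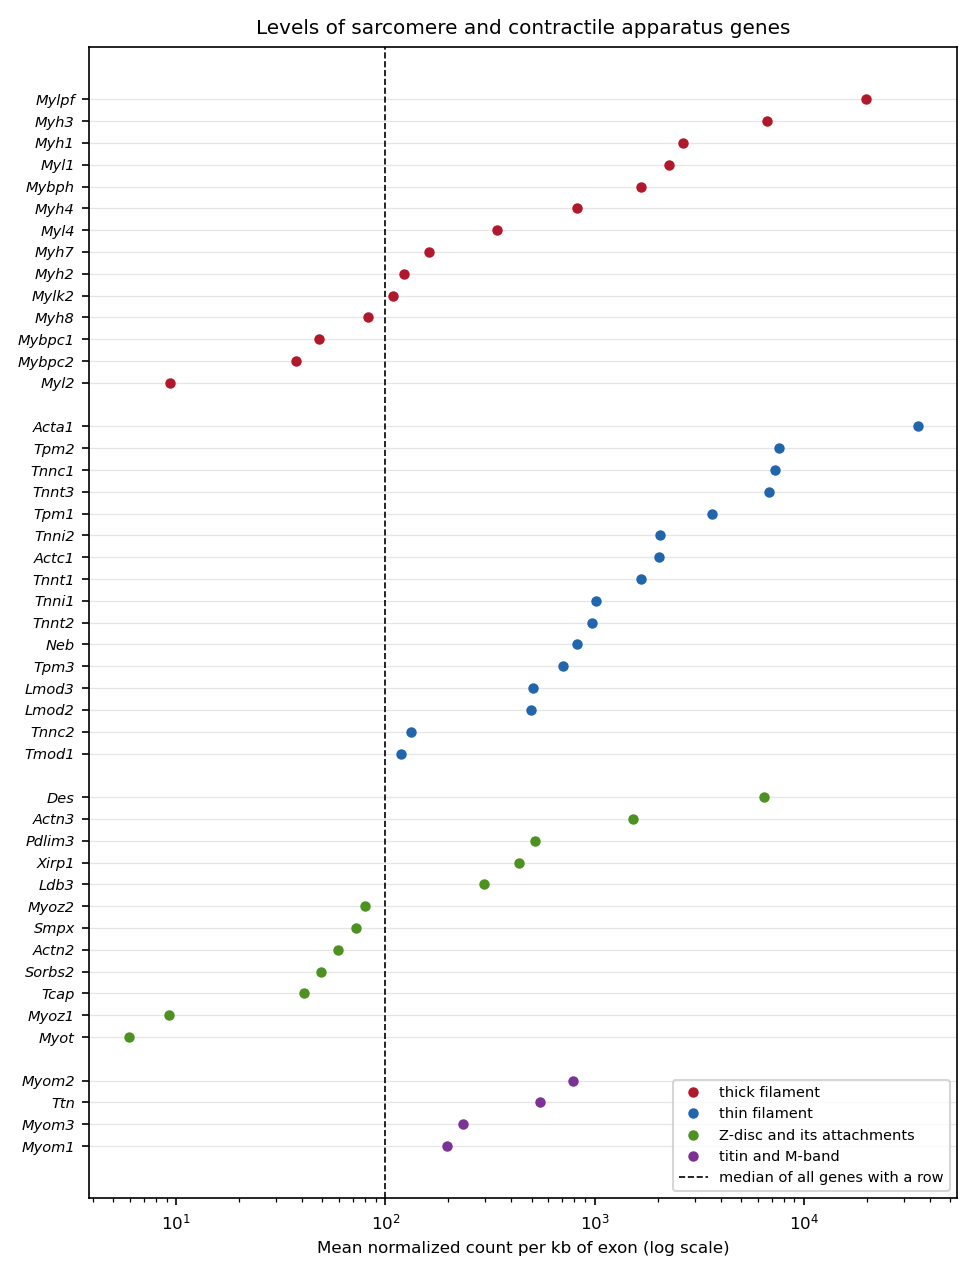
Mean normalized count per kb of merged exon (horizontal log axis) of the 46 genes with a row, one point per gene, coloured and grouped by role; the dashed line is the median of all genes with a row. Acta1 at 34861 and Mylpf at 19762 lie furthest to the right, and Myot at 5.94 furthest to the left.

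Thin filament genes carried most of the level per kb. The 16 with a row held 60.6% of the summed level per kb of the list, with a median of 1340 per kb. Acta1 alone gave 34861 of their 70719 per kb. By counts their share was lower, at 44.5% of the sum. Thick filament genes followed, with 14 genes, a median of 251 per kb and 29.7% of the sum. The 12 genes of the Z-disc and its attachments had a median of 76.2 per kb and 8.16% of the sum. The 4 genes of titin and the M-band had a median of 391 per kb but only 1.51% of the sum per kb, while their long transcripts took 19.7% of the summed counts.

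The promoters of the 4 most abundant genes that had a RefSeq promoter entry are shown, since these genes dominate the list. They are Acta1 (skeletal alpha-actin, the core of the thin filament), Mylpf (the fast regulatory myosin light chain), Tpm2 (beta-tropomyosin) and Tnnc1 (slow and cardiac troponin C). Each window runs from 250 bases before to 50 bases after the annotated RefSeq start, read 5′ to 3′ on the strand of the gene in GRCm38.p6. That start can differ from the gene ends in GENCODE. The Mylpf window lies inside the GENCODE gene (127208890 to 127214298), as does most of the Tpm2 window (gene end 43523765). Acta1 lies at chr8:123894726-123895025 on the minus strand, Mylpf at chr7:127211358-127211657 on the plus strand, Tpm2 at chr4:43523505-43523804 on the minus strand and Tnnc1 at chr14:31208062-31208361 on the plus strand. Capitals mark matches, on either strand, to the E-box CANNTG of the myogenic basic helix-loop-helix factors, the MEF2 site, the CArG box of serum response factor, or the MCAT element GGAATG of the TEAD factors.
Acta1 promoter: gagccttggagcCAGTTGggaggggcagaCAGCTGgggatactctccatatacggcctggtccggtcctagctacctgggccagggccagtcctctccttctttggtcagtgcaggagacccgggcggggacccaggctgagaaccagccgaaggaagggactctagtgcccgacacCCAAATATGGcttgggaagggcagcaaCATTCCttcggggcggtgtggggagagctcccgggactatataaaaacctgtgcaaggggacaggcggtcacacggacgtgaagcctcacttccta
Mylpf promoter: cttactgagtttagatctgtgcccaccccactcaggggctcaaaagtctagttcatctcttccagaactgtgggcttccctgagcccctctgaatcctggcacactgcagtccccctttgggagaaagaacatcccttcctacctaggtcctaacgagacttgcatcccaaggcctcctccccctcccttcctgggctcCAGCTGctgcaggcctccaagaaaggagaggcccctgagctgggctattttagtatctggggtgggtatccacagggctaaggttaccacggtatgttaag
Tpm2 promoter: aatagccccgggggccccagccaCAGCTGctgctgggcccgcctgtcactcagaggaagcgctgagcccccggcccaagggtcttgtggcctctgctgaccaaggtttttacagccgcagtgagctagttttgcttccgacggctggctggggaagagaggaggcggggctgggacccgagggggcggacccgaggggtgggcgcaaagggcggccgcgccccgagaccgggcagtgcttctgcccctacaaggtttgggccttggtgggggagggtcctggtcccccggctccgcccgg
Tnnc1 promoter: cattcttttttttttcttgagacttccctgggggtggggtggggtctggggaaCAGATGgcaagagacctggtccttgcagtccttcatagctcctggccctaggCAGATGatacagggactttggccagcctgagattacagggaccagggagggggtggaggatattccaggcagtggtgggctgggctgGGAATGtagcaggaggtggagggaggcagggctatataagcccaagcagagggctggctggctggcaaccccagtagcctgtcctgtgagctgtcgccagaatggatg

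The Acta1 window held 4 matches, namely E-boxes starting at -238 and -221, a CArG box at -73 and an MCAT element at -46, counted from the start site. The Tnnc1 window held 3 matches, with E-boxes at -197 and -145 and an MCAT element at -58. Mylpf and Tpm2 held 1 E-box each, at -51 and at -227. The E-boxes of Mylpf and Tpm2 and the second of Acta1 shared the same 6 letters, CAGCTG, whereas both E-boxes of Tnnc1 read CAGATG.

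Among the actins, Acta1 (chromosome 8, 123891769 to 123894751, GRCm38) had a mean normalized count of 53546, which was 34861 per kb and the 9th highest value per kb of all genes with a row. Cardiac alpha-actin Actc1, which is also made in embryonic skeletal muscle, stood at 3291, or 2034 per kb. Acta1 thus made up 94.5% of the level per kb of this pair. Their transcripts shared no window of 100 bases, so reads of that length would be told apart.

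Tropomyosins lie along the actin filament and block the myosin sites at rest. Tpm2 was at 22198 counts and 7631 per kb, Tpm1 at 23467 counts and 3619 per kb, and Tpm3 at 4270 counts and 702 per kb. Tpm2 therefore led per kb with 63.8% of the family, and Tpm1 led by counts with 47.0% against 44.5%. With the mean length of coding transcripts Tpm1 also led, at 15562 against 15209 per kb, so the order of these 2 genes depended on the length used. Each value covers all transcripts of a gene, so any muscle and nonmuscle forms of the same tropomyosin gene were not told apart.

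The troponin complex holds the calcium switch, with troponin T bound to tropomyosin, troponin I as the inhibitor and troponin C as the calcium sensor. The fast gene Tnnt3 stood at 10820 counts and 6835 per kb, slow Tnnt1 at 3679 and 1669, and cardiac Tnnt2 at 7499 and 967. Tnnt3 held 72.2% of the troponin T level per kb. When the longest coding transcript was used as length, Tnnt2 came to 6249 per kb, above Tnnt1 at 3474, and the share of Tnnt3 was 50.8%. For troponin I, fast Tnni2 reached 3062 counts and 2045 per kb, and slow Tnni1 reached 3639 counts and 1011 per kb, so the leader was Tnni2 per kb with 66.9% and Tnni1 by counts with 54.3%. For troponin C the gap was wide, with Tnnc1 at 7568 counts and 7270 per kb and fast Tnnc2 at 105 counts and 132 per kb. By name, fast genes led troponin T and, per kb, troponin I, while the slow and cardiac gene led troponin C with 98.2%. The fibre type of the cells was not tested.

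Nebulin (Neb), a giant protein that runs along the thin filament, had 21893 counts over 26.6 kb of exon, or 824 per kb. The leiomodins, which start new actin filaments, were nearly equal, with Lmod3 at 507 per kb and Lmod2 at 495 per kb. The pointed end cap Tmod1 stood at 468 counts and 119 per kb.

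Of the 6 myosin heavy chains, which form the motor of the thick filament, embryonic Myh3 led with 40372 counts and 6665 per kb. This was 63.5% of the family level. Fast Myh1 (2X) followed at 2644 per kb, or 25.2%, and fast Myh4 (2B) at 821 per kb, or 7.82%. Slow Myh7 stood at 161, fast Myh2 (2A) at 122 and perinatal Myh8 at 82.9 per kb, each holding 1.54% or less of the family. The embryonic isoform thus led the 6 heavy chains of the list in this pooled mean, which does not show the main chain of growing or differentiated cells. The order of the lowest genes, Myh2 and Myh8, turned with the scale, since Myh8 was the higher by counts (976 against 871) and with the longest coding transcript (159 against 143 per kb).

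Light chains bind the neck of the myosin head. Mylpf (chromosome 7, 127208890 to 127214298) had 20987 counts and 19762 per kb, the second highest level of the list, and held 99.95% of the regulatory light chain level. Its slow and cardiac paralog Myl2 had 18.1 counts and 9.30 per kb. Among the essential light chains, fast Myl1 stood at 2258 per kb and embryonic and atrial Myl4 at 340 per kb. Myl1 held 86.9% of that pair, and 72.1% when the longest coding transcript was used. Mylk2, the skeletal kinase of the regulatory light chain, was at 319 counts and 108 per kb. Of the myosin-binding proteins, Mybph stood at 1670 per kb and held 95.1%, while slow Mybpc1 was at 48.2 and fast Mybpc2 at 37.5 per kb.

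**Figure D2:**
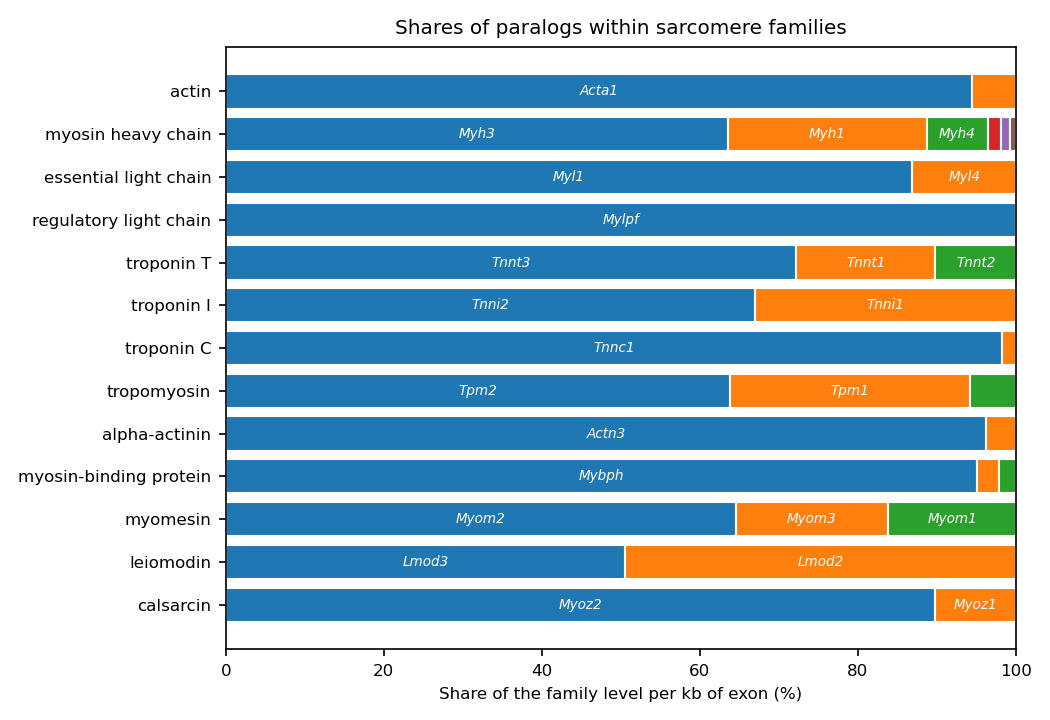
Share of each paralog in the summed level per kb of exon of its family (horizontal axis, %), for the 13 families with at least 2 genes with a row; segments run from the highest to the lowest gene and those over 7% are named. Acta1, Mylpf, Tnnc1, Actn3 and Mybph fill over 94% of their bars, and Lmod3 and Lmod2 split theirs almost evenly.

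Desmin (Des, chromosome 1, 75360329 to 75368579) is the intermediate filament that ties Z-discs together, and it led its group with 24157 counts and 6435 per kb. Next came Actn3, the fast alpha-actinin that cross-links thin filaments in the Z-disc, at 4432 counts and 1528 per kb. Its paralog Actn2 stood at 59.6 per kb, so Actn3 held 96.2% of the pair. The PDZ and LIM domain proteins Pdlim3 and Ldb3 were at 516 and 297 per kb, and the actin-binding Xirp1 at 436 per kb. With the longest coding transcript Pdlim3 came to 1655 per kb, above Actn3 at 1535. Per kb of merged exon, the other genes of this group lay below the median of all genes with a row. The calsarcins, which link alpha-actinin to calcineurin, were at 80.1 per kb for Myoz2 and 9.19 for Myoz1. Smpx stood at 72.2, the adaptor Sorbs2 at 49.4 and the titin cap Tcap at 40.6 per kb. Myotilin (Myot), an actin-bundling Z-disc protein, closed the list with 13.1 counts. With the longest coding transcript, Sorbs2 came to 217, Myoz2 to 232 and Smpx to 143 per kb, against a median of 164 over all genes, so Sorbs2 and Myoz2 then lay above it.

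Titin (Ttn, chromosome 2, 76703980 to 76982547), the spring that spans from Z-disc to M-band, had the highest mean normalized count of the list, 63949. Its longest coding transcript has 347 exons, and over 116.8 kb of merged exon this count came to 547 per kb. The myomesins, which bridge thick filaments at the M-band, were led by Myom2 at 785 per kb, or 64.5%. Myom3 stood at 235 and Myom1 at 196 per kb, an order that turned by counts (1420 against 2054) and with the longest coding transcript (255 against 364 per kb). With no error for any of these means, whether neighbours in the order of levels differ beyond their spread could not be assessed.

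Genes of the list were set beside 20 cytoplasmic and smooth muscle relatives, of which 15 had a row. These are levels of whole genes, so the tropomyosin ratios do not set muscle forms alone against nonmuscle forms. Acta1 was 2.34 times beta-actin (Actb, 14872 per kb), 2.59 times smooth muscle alpha-actin (Acta2, 13440 per kb) and 15.7 times gamma-actin (Actg1). Mylpf stood 51.8 times above Myl9, a smooth muscle and nonmuscle regulatory light chain at 381 per kb. Of the other regulatory light chains among the relatives, Myl12a was higher than Myl9, at 807 per kb, and Myl12b had no row. Tpm2 was at 1.60 times Tpm4 and Tpm1 at 0.760 times Tpm4, Actn3 at 1.07 times Actn4 and Tmod1 at 0.989 times Tmod3. These ratios depended on the length. By counts and with the longest coding transcript, Tpm1 was at 2.24 and 1.65 times Tpm4, Actn3 at 0.509 and 0.683 times Actn4, and Tmod1 at 0.350 and 0.406 times Tmod3. Desmin was lower than vimentin (Vim, 14381 per kb), at a ratio of 0.447, and at 0.256 with the longest coding transcript. The median of the 15 relatives with a row was 568 per kb. It leaves out Actn1, Myh9, Myh11, Myl6 and Myl12b, which had no row, and a missing row gives no level. A further 34 genes of the sarcomere outside the list were also looked up, and the 28 with a row had a median of 157 per kb, from 1.56 for Nebl to 4710 for Ankrd1.

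The tables differed in how many contractile genes they listed. All 46 genes had a row in the D4 table, which is 95.8% of the 48, whereas 40% of 22028 annotated protein-coding genes did. The METTL3 table listed 13 of the 48, or 27.1%, against 7.78% of protein-coding genes. The METTL14 table listed 11, or 22.9%, against 4.9%. Restricted to genes with a row in the D4 table, the shares were 28.3% of the contractile genes against 15.2% of 8808 protein-coding genes for METTL3, and 23.9% against 9.56% for METTL14. The members' shares lay above the background in each case, as a description without a test. Annotated genes were counted whether or not these cells express them. The list holds known muscle genes and was chosen with earlier results of these data known. Part of the contrast may therefore come from how the list and the background were chosen. The METTL3 and METTL14 tables share the GFP control libraries in GM, which also enter the D4 table.

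Listing in the GM tables is described here by part of the apparatus. Among protein-coding genes with a D4 row, 15.2% were listed for METTL3 and 9.56% for METTL14. With few genes per family, whether the parts differed in listing was not tested. All 5 troponin T and troponin I genes had a row in the METTL3 table, and 2 of these, Tnnt3 and Tnni1, also in the METTL14 table. Neither troponin C gene, none of the 3 tropomyosins and none of the 6 myosin heavy chains had a row in either table. Of the 15 thick filament genes, Myl1 and Mylk2 were listed, in both tables. Of the 12 Z-disc genes, 5 were listed in both tables, namely Actn3, Des, Pdlim3, Xirp1 and Sorbs2. Ttn was the only one of the 4 titin and M-band genes listed, again in both. Acta1 had a row in the METTL14 table and not in the METTL3 table. Tnnt1, Tnnt2 and Tnni2 had a row in the METTL3 table and not in the METTL14 table. A missing row means that the limit was not passed, and it does not show that METTL3 and METTL14 cells differed or that a gene was equal to its control. Of the 34 other sarcomere genes, 26 had a row in the D4 table, 12 in the METTL3 table and 9 in the METTL14 table. Of the 20 relatives, 14, 3 and 2 had one.

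Genes listed in a GM table had higher mean counts. The 14 contractile genes with such a row had a median of 4056, ranging from 319 to 63949, and the 32 listed for D4 alone had a median of 1405, ranging from 13.1 to 40372. These ranges overlapped widely. Genes with a D4 row that the tables themselves class as protein-coding showed the same order, with 690 for the 1550 also listed in a GM table and 531 for the other 7267. The part of abundance in which genes were listed was not tested.

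**Figure D3:**
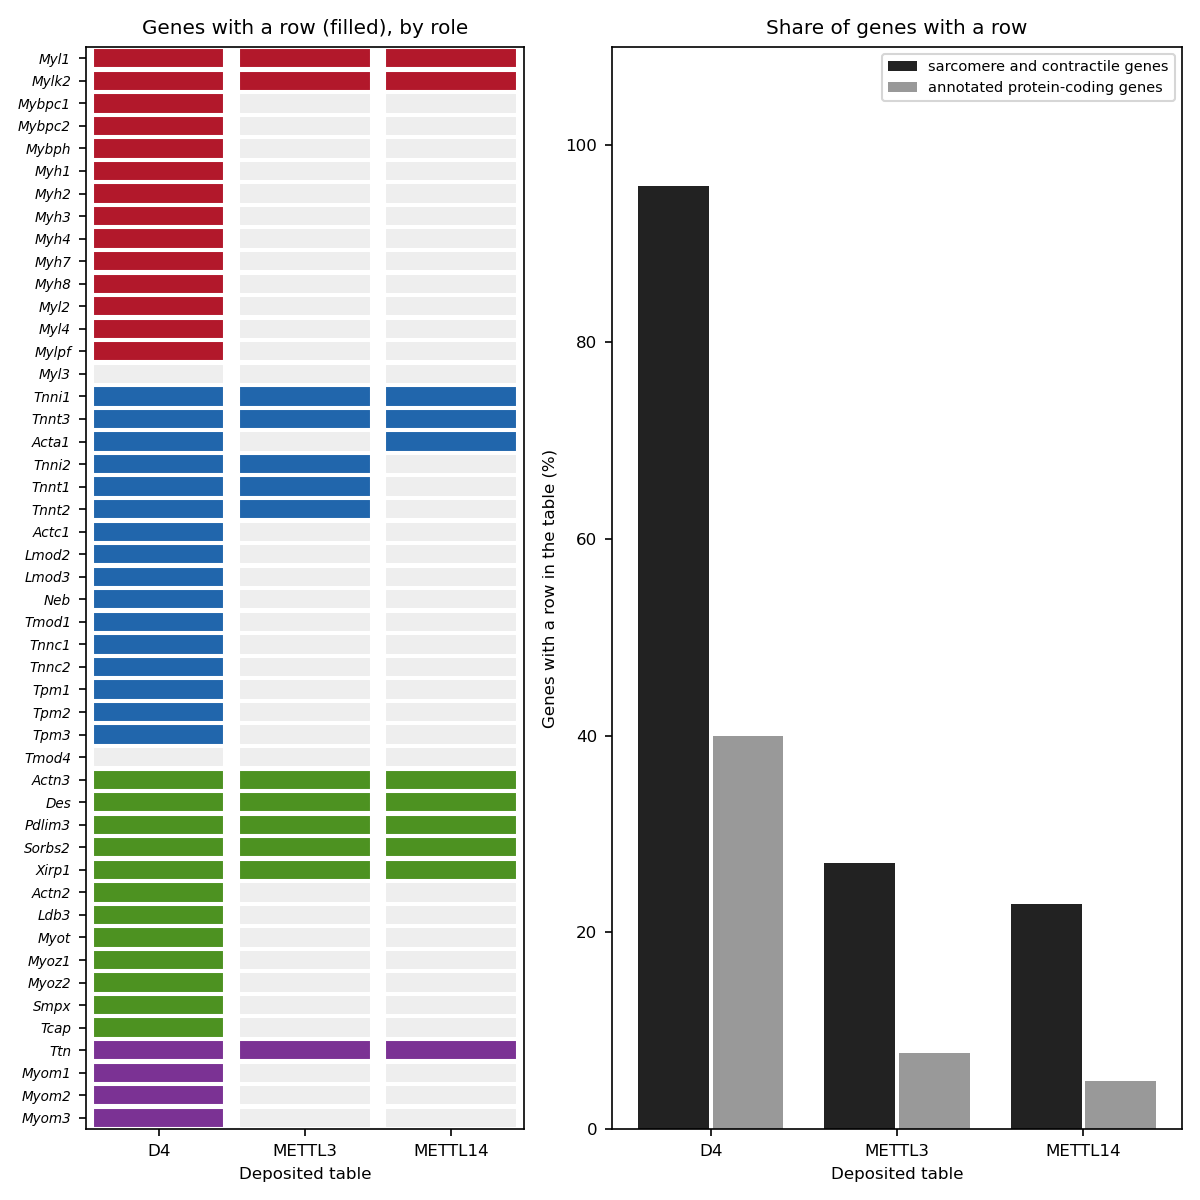
Left, genes with a row (filled) or without (grey) in the D4, METTL3 and METTL14 tables, grouped by role from thick filament (red) through thin filament (blue) and Z-disc (green) to titin and M-band (purple). Right, the share with a row (%) of the 48 contractile genes (black) and of annotated protein-coding genes (grey), 95.8% against 40% for D4.

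Several genes share sequence or exons with another gene, which could move their counts. Every run of 100 bases of the longest coding transcript was looked up, on both strands, in the transcripts of all other genes. The share found elsewhere was over 10% for 7 genes. It was 45.7% for Tpm3, all with Tpm3-rs7, 14.7% for Myh1 and 11.2% for Myh2, mostly with each other, and 13.9% for Myh7, mostly with Myh6. Embryonic Myh3 shared 1.15%, so the lead of Myh3 in the heavy chains rested on sequence that is nearly all its own. The other 3 overlap a gene on the opposite strand, with 39.2% for Mybph and Adora1, 38.8% for Tmod1 and Tstd2, and 25.6% for Tnnc2 and Ube2c. Exons of the other strand covered 74.0% of the merged exons of Tnnc2, 49.9% of Mybph, 32.6% of Tmod1 and 13.3% of Myh7. How reads matching several genes were counted is not given in the sources used here, so the level of Tpm3 and the tropomyosin shares are uncertain. Whether the counting used strand is not given either, so the levels of Tnnc2, Mybph, Tmod1 and Myh7 are uncertain. The same holds for the lead of Mybph among myosin-binding proteins and for the share of Tnnc1 in troponin C.

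**Figure D4:**
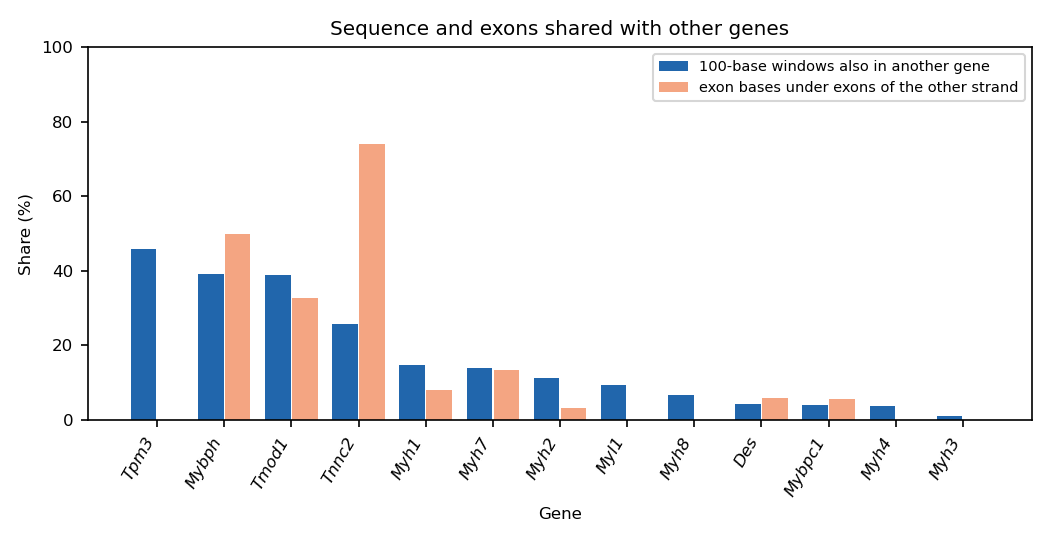
For genes with over 1% of windows shared or over 10% of exon bases overlapped, the share of 100-base windows also present in another gene (blue, %) and of merged exon bases lying under exons of the opposite strand (orange, %). Tpm3 has the highest shared sequence at 45.7% and Tnnc2 the highest overlap at 74.0%.

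Neighbouring genes of the list were unlike in level. Myh3, Myh2, Myh1, Myh4 and Myh8 follow each other on the plus strand of chromosome 11 within 230.3 kb, from 67078300 to 67308634. Along that order their levels were 6665, 122, 2644, 821 and 82.9 per kb, and Myh2 and Myh1, which differ widely in level, lie 2.53 kb apart. The other adjacent pair was Sorbs2 and Pdlim3 on chromosome 8, with a gap of 57.6 kb.

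RefSeq promoter windows were at hand for 37 of the 48 genes, as 45 windows because 7 genes have several starts. An E-box was found in 38 of these 45 windows, or 84.4%, against 72.3% of all 32851 promoters. The CArG box was found in 7 windows, or 15.6% against 1.63%, the MEF2 site in 6, or 13.3% against 3.19%, and the MCAT element in 14, or 31.1% against 14.7%. Windows of protein-coding genes with a D4 row gave 64.0%, 1.35%, 2.03% and 12.2% for the E-box, the CArG box, the MEF2 site and the MCAT element. The CArG windows belong to Acta1, Actc1, Myh4, Myl3, Myom1 and, with overlapping windows, Ldb3. The MEF2 windows belong to Myh1, Myh4, Myh8, Myom3, Myoz2 and Ttn, of which Myh4 held all 4 kinds of match. These matches are a description of the letters in each window and not evidence of binding.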

How the data were processed

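RNA-seq of C2C12 cells was analysed from 3 deposited tables of genes kept at a false discovery rate of at most 0.05. The authors aligned reads with hisat2 to GRCm38, counted them with featureCounts on Ensembl annotation version 102 and compared groups with DESeq2. Program versions and strand settings are not given in the sources used here. The unit used is a signal, the mean normalized count deposited by the authors per gene, which is a mean of counts divided by library size factors. Which libraries enter the mean is not stated. It differed between tables by at most a relative 4.77e-10, which implies a common set of libraries. Such a set would hold all the groups compared, most of them in GM. The tables also hold fold changes, standard errors, test statistics and p-values of the authors' own comparisons, and 2 tables hold 1 unheaded value; none was used. Depth per library is unknown here, so no interval is given.

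Gene names were matched exactly. Of the gene IDs in the D4, METTL3 and METTL14 tables, 9819 of 9823, 1754 of 1754 and 1102 of 1102 were in GENCODE M21 (GRCm38), which gave positions, gene types and merged exon lengths. Levels were divided by merged exon length in kb. All genes with a row are named, and promoters are printed for the 4 highest with an entry. A planned comparison of protein sequences was not made. The pairs of muscle genes and relatives set against each other were picked when levels were computed. Genes and lists were chosen with earlier results of these data known. No test was run, since no values per library were used. The lookup of shared windows, the E-box and the MCAT element was tested on simulated data, and that of the MEF2 site and the CArG box was not. Python 3.11.15, pandas 2.3.3, NumPy 2.4.6 and matplotlib 3.10.9 were used.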

Additional observations from a re-analysis of the deposited data

How the results depend on the processing

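No paired analysis was possible because the tables hold no values per library, and leaving out a replicate was not possible for the same reason. The median percentile of 88.4 was 87.4 among protein-coding genes, 88.3 within the D4 table and 87.6 with a count of at least 10. The median of 511 per kb depended on the length, at 553 with the longest transcript, 710 with the longest coding transcript (chosen after seeing the data, as were the 50-base window, the family shares by mean coding length and the other scales for ratios and orders) and 1098 with the mean length of coding transcripts. With the longest coding transcript, 16 genes moved by over 1.5 times, up to 6.46 times for Tnnt2, 4.92 for Myl4, 4.39 for Sorbs2 and 3.21 for Pdlim3, and 9 of the 10 highest genes were the same. The leading gene changed in troponin I without division by length, and in tropomyosin without division by length and with the mean length of coding transcripts; it stayed in the other 11 families under the 4 alternatives run. Below the leader, Myh2 and Myh8, Tnnt1 and Tnnt2, and Myom3 and Myom1 changed order. Against Actb, Acta1 stood at 1.34 times by counts and 1.31 times with the mean coding length.

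Family shares (%) without division by length were 61.8 for Myh3, 74.8 for Myl1, 49.2 for Tnnt3, 45.7 for Tnni2, 44.5 for Tpm2, 95.1 for Actn3, 91.7 for Mybph, 66.7 for Myom2, 53.4 for Lmod3 and 94.0 for Myoz2. With the longest transcript they were 62.0 for Myh3, 90.0 for Myl1, 63.7 for Tnnt3, 50.7 for Tpm2, 95.3 for Actn3 and 68.9 for Myom2. With the longest coding transcript they were 62.0 for Myh3, 72.1 for Myl1, 50.8 for Tnnt3, 55.8 for Tnni2, 50.4 for Tpm2, 95.3 for Actn3, 68.9 for Myom2 and 94.5 for Myoz2. With the mean length of coding transcripts they were 93.3 for Acta1, 55.4 for Myh3, 74.6 for Myl1, 49.9 for Tnnt3, 52.7 for Tnni2, 98.7 for Tnnc1, 44.9 for Tpm2, 93.6 for Actn3, 92.8 for Mybph, 66.2 for Myom2 and 95.2 for Myoz2. The remaining shares moved by less than 0.5% of their value.

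Over all 55536 annotated genes, 17.7%, 3.16% and 1.98% had a row in the D4, METTL3 and METTL14 tables. In the 250 bases before the start alone, motif shares were 82.2% of member windows and 66.2% of all promoters for the E-box, 2.92% of all for the MEF2 site, 1.47% of all for the CArG box, and 28.9% and 12.6% for the MCAT element. Among protein-coding genes with a D4 row the shares were 64.0%, 2.03%, 1.35% and 12.2%. With windows of 50 bases, 10 genes shared over 10%.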
